A study of Mus musculus with 18 samples.

Results

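The genes described here are 10 transcription factors and cofactors that define the identity of B cells: Pax5, Ebf1, Spi1, Spib, Ets1, Irf8, Pou2af1, Foxo1, Bach2 and Bcl6. They were chosen by gene symbol, with earlier results of these data known, and are 10 of the 12960 detected genes in the deposited table. All 10 passed the filter on low values, a mean of at least 1 RPKM (reads per kilobase of gene, relative to the number of reads in the library) in 1 group. RNA was measured in 18 libraries of mouse spleen cells, 3 in each of 6 groups made by 3 cell types and 2 genotypes. Knockout mice (KO) carried G9afl/fl and a Cre recombinase made in B cells, which can delete part of Ehmt2, the gene of the histone methyltransferase G9a. Control mice (Ctrl) carried the same Cre allele without G9afl/fl, so the recombinase is shared by all groups. Activated B cells (B220+GL7+) and plasma cells (CD138+ with intermediate or low B220) were sorted from spleen 72 h after 50 µg of lipopolysaccharide (LPS) was given in 100 µl by tail vein. Naive B cells came from uninfected mice and were enriched with CD43 beads, so cell type, LPS and isolation method cannot be told apart between naive and activated cells. Libraries started from 1000 cells, and the labels give neither the age of the mice nor whether the replicates were separate animals.

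A B cell keeps its identity through a network of factors that switch B cell genes on and other programs off. EBF1 and PAX5 commit cells to the lineage, with the ETS factors PU.1 (Spi1), SPI-B and ETS1, with IRF8, and with FOXO1, which links survival and migration genes to growth factor signalling. BCL6 and BACH2 are repressors that hold back plasma cell differentiation, and OBF-1 (Pou2af1) is a coactivator of octamer-binding factors that B cells and plasma cells both use. When a B cell becomes a plasma cell, BLIMP-1 (Prdm1) represses several of these genes. G9a methylates histone H3 at lysine 9, which is a feature of silenced genes.

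Promoters of 3 genes are shown because these genes stand for the main patterns below. Foxo1 was called lower in activated KO cells, Spib had the largest fall into plasma cells, and Pou2af1 was higher in plasma cells than in activated cells. Each window is the 250 bases before the start site in RefSeq on build GRCm38.p6, read 5′ to 3′ on the strand of the gene. Capitals mark letters that match any of 8 short motifs searched on both strands. The windows are chr3:52268087-52268336 on the plus strand for Foxo1, chr7:44532072-44532321 on the minus strand for Spib and chr9:51213440-51213689 on the plus strand for Pou2af1.
Foxo1: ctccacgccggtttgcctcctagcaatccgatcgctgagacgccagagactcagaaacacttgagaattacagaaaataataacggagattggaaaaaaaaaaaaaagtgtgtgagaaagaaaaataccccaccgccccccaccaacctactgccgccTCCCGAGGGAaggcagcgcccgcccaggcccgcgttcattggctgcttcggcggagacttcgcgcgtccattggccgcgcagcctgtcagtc
Spib: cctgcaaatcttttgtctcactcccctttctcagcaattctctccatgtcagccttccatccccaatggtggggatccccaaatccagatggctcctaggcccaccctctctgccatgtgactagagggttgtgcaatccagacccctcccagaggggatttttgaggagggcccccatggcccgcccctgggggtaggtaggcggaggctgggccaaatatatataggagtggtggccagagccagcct
Pou2af1: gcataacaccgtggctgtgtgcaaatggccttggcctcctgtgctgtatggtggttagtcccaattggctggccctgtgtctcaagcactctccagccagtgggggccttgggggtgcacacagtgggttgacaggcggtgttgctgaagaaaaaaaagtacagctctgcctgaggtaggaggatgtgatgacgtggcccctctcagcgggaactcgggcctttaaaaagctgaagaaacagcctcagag
The capitals in the Foxo1 window are the EBF motif TCCCNNGGG, which starts 92 bases before the start site and overlaps its own match on the opposite strand. The Spib and Pou2af1 windows held none of the 8 motifs. RefSeq promoters were found for 8 of the 10 genes, all but Spi1 and Ets1, in 11 windows. TCCCNNGGG was in 5.6% of all 32851 promoters in the table, and of the 8 genes it was in Foxo1. The PU.1 and SPI-B core GAGGAA was in 23.3% of all promoters, and in those of Bcl6 and Ebf1. The E-box CAGGTG was in 17.2% of all promoters and in a second Irf8 window, and the IRF and BLIMP-1 motif GAAANNGAA was in 7.1% of all promoters and in Ebf1. The octamer ATGCAAAT, the E-box CAGCTG, the FOXO motif TGTTTAC and the AP-1 and BACH core TGAGTCA were in none of the 11 windows, and in 1.6%, 13%, 3.2% and 4.5% of all promoters. The GC content was 56.0% in the Foxo1 window, 58.0% in Spib and 56.0% in Pou2af1, with a median of 52.4% over all promoters. These matches are letters in a window and do not show that a factor binds there. Bases after the start site lay on a GENCODE transcript of the gene for the Foxo1 and Spib windows, but not for Pou2af1. They also did not for Pax5, a Bcl6 window and the Ebf1 window with GAGGAA, so those start sites are less certain.

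Values below are RPKM scaled between libraries by the median of ratios, a level per length of gene, so that levels of different genes can be compared. Each change is a difference of log2(scaled RPKM + 1) means with its standard error (SE) and with adjusted p-values from a limma fit of all 18 libraries, called under 0.05. The depth estimated from the steps between low values lay between 1.63 and 4.06 M reads (megareads) for naive cells, 2.66 and 10.82 M for activated cells and 5.16 and 6.91 M for plasma cells. Only 27.6% to 37.2% of low values lay within 0.1 of a whole read, so these depths are rough and uncertain. Between replicates, genes had a median SD of 0.388 in naive KO and 0.369 in naive Ctrl, against 0.125 to 0.134 in the other groups. A shared fit is therefore lenient for naive cells and strict for the others, and calls in the fit of only the libraries compared are given beside the counts they change. Ehmt2 measured 13.9, 23.3 and 13.9 in naive KO libraries, against 27.7, 16.7 and 13.8 in naive Ctrl libraries. It measured 23.3, 22.5 and 21.6 in activated KO libraries, against 21.6, 19.5 and 25.7 in activated Ctrl libraries. Among plasma cells it measured 14.7, 12.3 and 14.3 in KO libraries, against 17.6, 16.2 and 17.8 in Ctrl libraries. In plasma cells every KO library lay below every Ctrl library, and 13.6% of all genes did so. Ehmt2 was called in no cell type in the main limma fit. With library weights, a setting that called 1641 of all genes, it was called in plasma cells (-0.28, adjusted p = 0.049). A value over the whole gene does not check a deletion of part of it. Summed B cell markers ran from 5273 to 5532 in naive KO and from 4786 to 5298 in naive Ctrl libraries, and from 1105 to 1283 in plasma KO and 1479 to 1795 in plasma Ctrl libraries. Summed plasma cell markers ran from 272.2 to 325.9 in naive KO and 258.3 to 296.1 in naive Ctrl libraries. They ran from 7835 to 8798 in plasma KO and 8501 to 9528 in plasma Ctrl libraries. Naive and plasma cells thus carried the markers of their labels. Summed activated B cell markers overlapped between activated Ctrl (540.7 to 653.9) and plasma Ctrl (643.5 to 654.2). They ran from 709.6 to 781.2 in activated KO and 612.3 to 698.9 in plasma KO. Erythroid markers in naive libraries summed to 329.5 to 655.0 in KO and 351.9 to 455.9 in Ctrl. Platelet markers there summed to 46.7 to 76.2 in KO and 47.7 to 110.6 in Ctrl. T cell markers there summed to 19.4 to 28.8 in KO and 12.8 to 61.4 in Ctrl.

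Pou2af1 had the highest level of the 10 genes in all 6 groups. Bach2 was the lowest in naive cells of both genotypes, Bcl6 in activated cells of both genotypes, and in plasma cells Bach2 in KO and Pax5 in Ctrl. The order otherwise changed with the cell type: Spib stood among the 3 highest in naive and activated cells and in the seventh place in plasma cells.

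**Figure D1:**
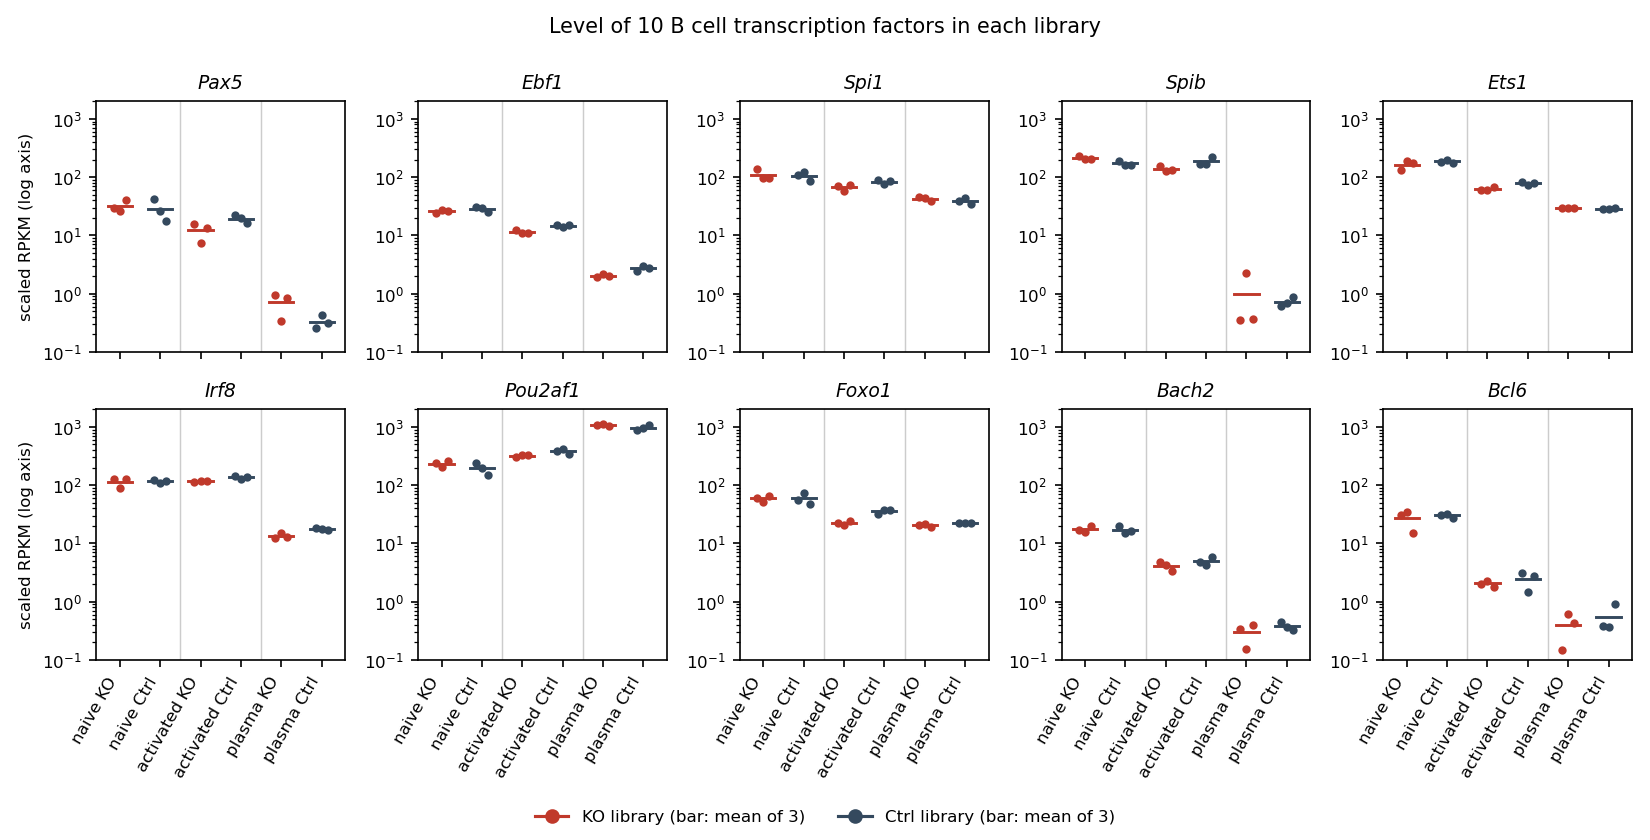
Scaled RPKM of the 10 genes in each of the 18 libraries, on a log axis, by cell type with KO left of Ctrl; each point is a library and each bar the mean of 3. Pou2af1 lies above 1000 RPKM in all 3 plasma KO libraries, while Pax5, Bach2, Bcl6 and Spib lie at or below 2.26 RPKM in all 6 plasma cell libraries.

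The commitment factors Pax5 and Ebf1 fell at each step in KO cells, and were lowest in plasma cells of both genotypes. Pax5 (Entrez 18507, chromosome 4, 44524748 to 44710694, minus strand) measured 29.0, 25.9 and 41.0 in naive KO libraries, against 42.2, 25.8 and 17.4 in naive Ctrl libraries. Among activated cells it measured 16.0, 7.47 and 13.2 in KO libraries, against 22.4, 19.8 and 16.2 in Ctrl libraries. In plasma cells it measured 0.935, 0.337 and 0.851 in KO libraries, against 0.26, 0.43 and 0.309 in Ctrl libraries. The 3 activated KO libraries lay below the 3 naive KO libraries, whereas activated and naive Ctrl libraries overlapped. The change was -1.35 (SE 0.30, adjusted p = 9.7e-04) in activated against naive KO cells and -0.45 (SE 0.30, adjusted p = 0.204) in activated against naive Ctrl cells. Without naive Ctrl replicate 3, the lowest of its group, the Ctrl change was called at -0.74. For plasma against activated cells Pax5 fell by 2.91 (SE 0.30) in KO and by 3.93 (SE 0.30) in Ctrl on the log2 scale.

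Ebf1 (Entrez 13591, chromosome 11, 44618100 to 45008096, plus strand) encodes the early B cell factor that works with PAX5. It measured 24.3, 27.3 and 26.1 in naive KO libraries, against 30.7, 29.9 and 25.1 in naive Ctrl libraries. Activated KO libraries had 12.6, 11 and 11, against 15.1, 14 and 15 in activated Ctrl libraries. Plasma KO libraries had 1.96, 2.15 and 2.04, against 2.42, 3.0 and 2.73 in plasma Ctrl libraries. The 3 cell types did not overlap in either genotype, and naive KO and Ctrl were the only neighbours in the order of the 6 groups that did. Ebf1 changed by -1.10 (SE 0.15, adjusted p = 6.7e-06) in activated against naive KO cells and by -0.91 (SE 0.15, adjusted p = 6.0e-05) in activated against naive Ctrl cells. In plasma against activated cells the change was -2.04 in KO and -2.08 in Ctrl. Ebf1 kept more of its level in plasma cells than Pax5, with 2.05 ± 0.0967 in KO and 2.72 ± 0.292 in Ctrl, against Pax5 at 0.708 ± 0.324 in KO and 0.333 ± 0.0873 in Ctrl (SD, n = 3).

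The ETS factors Spi1, Spib and Ets1 bind related DNA and behaved differently at the 2 steps. Spib (Entrez 272382, chromosome 7, 44525995 to 44532087, minus strand) encodes SPI-B, an activator of B cell receptor signalling genes. It measured 233.8, 207.4 and 206.6 in naive KO libraries, against 191.5, 162.2 and 163.7 in naive Ctrl libraries. In activated cells it measured 156.9, 126.3 and 132.8 in KO libraries, against 170.8, 168.2 and 224.8 in Ctrl libraries. Its plasma values were 0.347, 2.26 and 0.369 in KO libraries, against 0.621, 0.684 and 0.868 in Ctrl libraries. Spib was thus high in naive and activated cells and near 0 in plasma cells, with 1 plasma KO library above the others. The change in plasma against activated cells was -6.26 (SE 0.24, adjusted p = 3.6e-13) in KO and -6.77 (SE 0.24, adjusted p = 1.0e-13) in Ctrl. From naive to activated cells Spib was called in KO, at -0.64 (SE 0.24, adjusted p = 0.030), and not in Ctrl, at 0.11 (adjusted p = 0.698). The KO call was lost with a pseudocount of 0.1 (adjusted p = 0.191), with library weights (0.294) and without naive KO replicate 1 or 2 or activated KO replicate 3 or 4, where the largest adjusted p was 0.090.

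Spi1 (Entrez 20375, chromosome 2, 91082374 to 91115759, plus strand) encodes PU.1, which B cells share with myeloid cells. It measured 139.3, 95.4 and 97.4 in naive KO libraries, against 110.4, 121.9 and 84.8 in naive Ctrl libraries. Among activated cells it had 71.1, 57.8 and 72.0 in KO libraries, against 89.2, 75.8 and 84.4 in Ctrl libraries. Among plasma cells it had 45.1, 43.0 and 39.4 in KO libraries, against 38.6, 44.3 and 34.5 in Ctrl libraries. Unlike Spib, which was near 0 in plasma cells, Spi1 kept 34.5 to 45.1 RPKM there and was the second highest of the 10 genes. Spi1 changed by -0.70 (SE 0.16, adjusted p = 0.001) in activated against naive KO cells and by -0.33 (SE 0.16, adjusted p = 0.079) in activated against naive Ctrl cells, where quantile normalization (-0.57) or leaving out naive Ctrl replicate 3 (-0.48) made the call. For plasma against activated cells it changed by -0.64 (adjusted p = 0.003) in KO and by -1.07 (adjusted p = 2.0e-05) in Ctrl.

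Ets1 (Entrez 23871, chromosome 9, 32636241 to 32757820, plus strand) encodes a factor that restrains the terminal differentiation of B cells in mice. It measured 132.4, 188.1 and 173.5 in naive KO libraries, against 183.3, 196.6 and 177.0 in naive Ctrl libraries. Activated KO libraries had 60.6, 59.6 and 67.8, against 83.6, 73.3 and 78.3 in activated Ctrl libraries. Plasma KO libraries had 30, 29.7 and 29.4, against 27.9, 28.5 and 29.5 in plasma Ctrl libraries. The cell types separated in both genotypes, and the plasma values agreed closely between libraries, with an SD of 0.304 in KO and 0.771 in Ctrl. The change in activated against naive cells was -1.37 (SE 0.11, adjusted p = 2.2e-08) in KO and -1.23 (SE 0.11, adjusted p = 1.1e-07) in Ctrl. In plasma against activated cells it was -1.05 (adjusted p = 5.4e-07) in KO and -1.42 (adjusted p = 8.9e-09) in Ctrl.

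Irf8 and Pou2af1 held or gained level in activated cells and then parted. Irf8 (Entrez 15900, chromosome 8, 120736358 to 120756694, plus strand) encodes an interferon regulatory factor that pairs with PU.1. It measured 128.0, 88.4 and 125.1 in naive KO libraries, against 120.4, 110.8 and 116.5 in naive Ctrl libraries. In activated cells it had 115.0, 118.2 and 117.2 in KO libraries, against 141.2, 129.3 and 138.6 in Ctrl libraries. In plasma cells it had 12.4, 15 and 13 in KO libraries, against 18.7, 17.7 and 17.1 in Ctrl libraries. Activated Ctrl libraries lay above all naive Ctrl libraries, and activated KO libraries lay within the range of naive KO libraries. The activated against naive change was not called in KO (0.06, SE 0.12, adjusted p = 0.715) or in Ctrl (0.23, SE 0.12, adjusted p = 0.113), and the KO value was -0.14 with quantile normalization. For plasma against activated cells Irf8 fell by 3.03 (SE 0.12) in KO and by 2.87 (SE 0.12) in Ctrl, a mean 8.66-fold lower and 7.65-fold lower.

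Pou2af1 (Entrez 18985, chromosome 9, 51213690 to 51240079, plus strand) was the only one of the 10 genes called higher at any step. It measured 239.4, 205.3 and 254.8 in naive KO libraries, against 239.6, 195.5 and 151.9 in naive Ctrl libraries. Among activated cells it had 305.9, 331.4 and 326.8 in KO libraries, against 392.6, 410.9 and 347.7 in Ctrl libraries. Among plasma cells it had 1068, 1142 and 1029 in KO libraries, against 900.5, 956.6 and 1063 in Ctrl libraries. Each cell type lay wholly above the one before it in both genotypes. The change was 0.47 (SE 0.13, adjusted p = 0.005) in activated against naive KO cells and 0.99 (SE 0.13, adjusted p = 5.6e-06) in activated against naive Ctrl cells. In plasma against activated cells it was 1.74 (adjusted p = 2.3e-09) in KO, a mean 3.36-fold higher, and 1.34 (adjusted p = 8.7e-08) in Ctrl, a mean 2.54-fold higher.

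Foxo1 (Entrez 56458, chromosome 3, 52268337 to 52350109, plus strand) was at similar levels in activated and plasma cells of KO mice. It measured 61.1, 52.2 and 65.0 in naive KO libraries, against 56.7, 74.3 and 47.6 in naive Ctrl libraries. In activated cells it had 22.6, 21.1 and 24.3 in KO libraries, against 32.6, 37.5 and 37.2 in Ctrl libraries. In plasma cells it had 20.4, 21.8 and 19.5 in KO libraries, against 22.6, 22.0 and 22.6 in Ctrl libraries. Activated KO libraries overlapped plasma KO libraries, and activated Ctrl libraries lay above every activated KO and every plasma cell library. The activated against naive change was -1.35 (SE 0.14, adjusted p = 3.6e-07) in KO and -0.70 (SE 0.14, adjusted p = 4.6e-04) in Ctrl. For plasma against activated cells it was -0.13 (SE 0.14, adjusted p = 0.578) in KO and -0.65 (SE 0.14, adjusted p = 0.001) in Ctrl. The KO change had a 95% interval of -0.43 to 0.16, was called with library weights (-0.16, adjusted p = 0.039) and was -0.29 with RPKM as deposited.

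The repressors Bach2 and Bcl6 lost most of their level already in activated cells. Bach2 (Entrez 12014, chromosome 4, 32238413 to 32586109, plus strand) measured 17.2, 15.9 and 19.6 in naive KO libraries, against 19.6, 15.4 and 16.4 in naive Ctrl libraries. Among activated cells it had 4.88, 4.33 and 3.32 in KO libraries, against 4.82, 4.25 and 5.74 in Ctrl libraries. Among plasma cells it had 0.341, 0.156 and 0.395 in KO libraries, against 0.453, 0.366 and 0.322 in Ctrl libraries. KO and Ctrl overlapped in all 3 cell types, and the cell types did not overlap in either genotype. Bach2 changed by -1.85 (SE 0.20) in KO and by -1.61 (SE 0.20) in Ctrl in activated against naive cells, and by -1.99 (SE 0.20) in KO and -2.10 (SE 0.20) in Ctrl in plasma against activated cells, and all 4 changes were called. The added 1 limits the size of the plasma changes, which were -3.47 in KO and -3.39 in Ctrl with a pseudocount of 0.1.

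Bcl6 (Entrez 12053, chromosome 16, 23965050 to 23988866, minus strand), which germinal centre B cells require, fell further than any other of the 10 genes in activated against naive cells. It measured 30.5, 35.3 and 15.1 in naive KO libraries, against 31.3, 31.6 and 27.7 in naive Ctrl libraries. In activated cells it had 2.05, 2.31 and 1.82 in KO libraries, against 3.09, 1.47 and 2.71 in Ctrl libraries. In plasma cells it had 0.148, 0.618 and 0.438 in KO libraries, against 0.383, 0.369 and 0.907 in Ctrl libraries. Naive KO replicate 3 was low for its group but still above all activated libraries. The activated mean was 13.1-fold lower than the naive mean in KO and 12.5-fold lower in Ctrl, with changes of -3.11 (SE 0.28, adjusted p = 5.8e-08) and -3.22 (SE 0.28, adjusted p = 5.3e-08). In plasma against activated cells it changed by -1.14 (adjusted p = 0.004) in KO and by -1.13 (adjusted p = 0.004) in Ctrl. These were -2.23 in KO and -1.98 in Ctrl with a pseudocount of 0.1.

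Over the 10 genes, 1 was called higher and 8 lower in activated against naive KO cells, and 1 higher and 5 lower in activated against naive Ctrl cells. Of all genes tested, 21.2% were called higher and 34.5% lower in that KO step, and 19% higher and 39.4% lower in the Ctrl step. The median change of the 10 genes was -1.22 in KO and -0.57 in Ctrl, beside -0.26 and -0.29 over all genes. Those medians of all genes moved to -0.05 and -0.02 with quantile normalization. For plasma against activated cells 1 of the 10 genes was called higher and 8 lower in KO, and 1 higher and 9 lower in Ctrl. The shares of all genes were 15.8% higher and 17.4% lower in KO, and 16.1% higher and 16.7% lower in Ctrl. The medians were -1.56 in KO and -1.75 in Ctrl, beside -0.02 and -0.03 over all genes. Across both steps, plasma against naive cells, all 10 genes were called in each genotype, 1 higher and 9 lower, where 24.7% of all genes were called higher and 37.1% lower in KO and 24.3% higher and 44.4% lower in Ctrl. These libraries are bulk, so fewer cells of a type and less RNA per cell cannot be told apart.

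**Figure D2:**
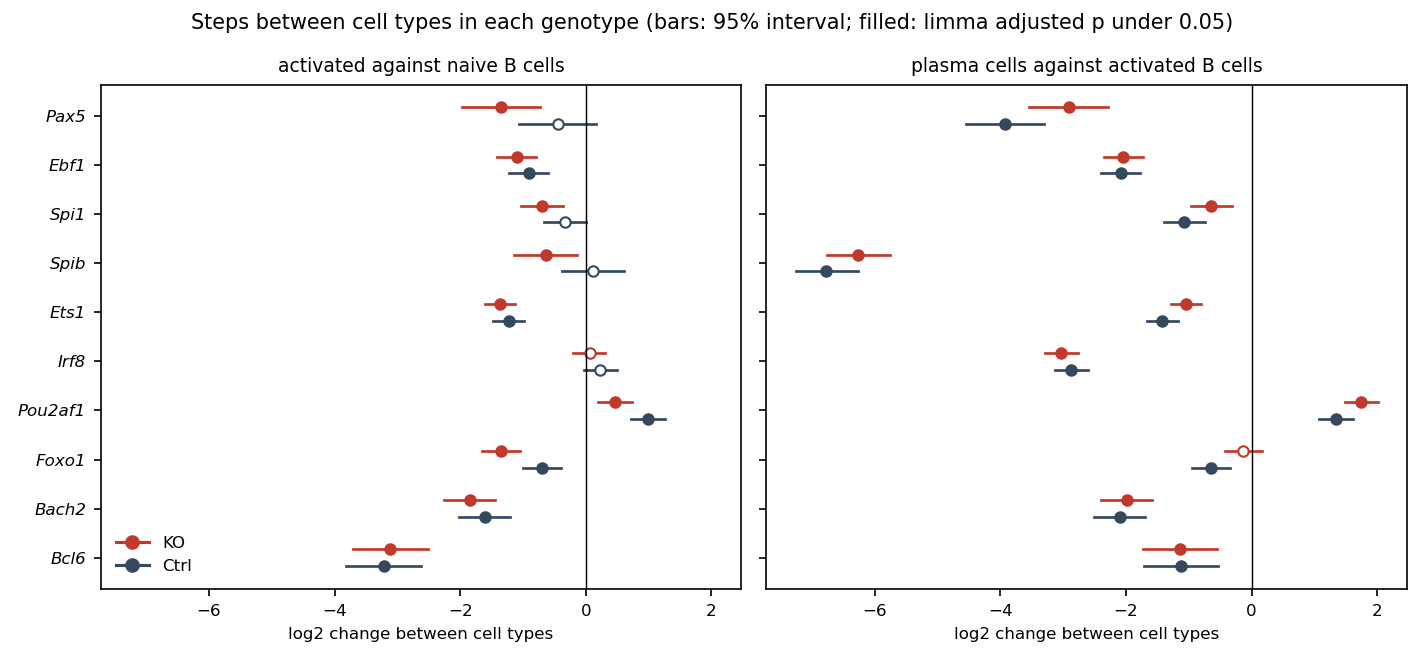
Log2 change of each of the 10 genes with its 95% interval (horizontal axis, log2(scaled RPKM + 1) scale) in activated against naive cells and in plasma against activated cells, KO and Ctrl apart. Pou2af1 is the gene above 0 in each plasma against activated comparison, and Foxo1 in KO, at -0.13, is the gene whose interval there crosses 0.

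In plasma cells Pax5, Bach2, Bcl6 and Spib had 0.148 to 2.26 RPKM in KO libraries and 0.26 to 0.907 RPKM in Ctrl libraries. The library medians of 57 odorant receptor genes, which B cells are not known to need, were 0.216 to 0.868 RPKM in plasma KO and 0.502 to 0.688 RPKM in plasma Ctrl libraries. They were 0.44 to 0.761 RPKM in activated KO and 0 to 0.952 RPKM in activated Ctrl libraries, and higher in naive libraries, at 1.7 to 5.04 RPKM in KO and 4.3 to 7.02 RPKM in Ctrl. The 4 factors were therefore at about the level of these receptors in plasma cells, and ratios to plasma cells rest on those low values. Single values of Spib (2.26) and Pax5 (0.935) in KO, and of Bcl6 (0.907) and Spib (0.868) in Ctrl, lay above their group's highest receptor median. Others lay below the lowest. The receptors are those in a table of detected genes and were highest in naive libraries, so they are not a clean measure of background. Irf8, Foxo1, Ets1, Spi1 and Ebf1 lay above the receptor medians in all 6 plasma cell libraries.

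The study's main comparison, KO against Ctrl within a cell type, gave its clearest values for these genes in activated B cells. All 10 had negative changes there, with a median of -0.32 beside -0.02 over all genes, but only Foxo1 was called, and 4 of the 10 had an unadjusted p under 0.05. By adjusted p, 1.78% of all genes tested were called in either direction and 1.36% lower. The share of all genes with an unadjusted p under 0.05 was not counted, here or below. Foxo1 had a mean of 22.7 ± 1.64 in activated KO cells, against 35.8 ± 2.72 in activated Ctrl cells (SD, n = 3 each). All 3 KO libraries lay below all 3 Ctrl libraries, a mean 1.58-fold lower in KO. The change was -0.63 (SE 0.14, 95% interval -0.93 to -0.34, adjusted p = 0.025 in the limma fit of all libraries and 0.003 in the fit of the activated libraries alone). The call in the fit of all libraries was lost when 1 of 4 libraries was left out, without activated KO replicate 1 (adjusted p = 0.092) or 3 (0.139) and without activated Ctrl replicate 3 (0.110) or 4 (0.138), while the change stayed between -0.70 and -0.58.

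The other 9 genes missed the threshold in activated cells. Pax5 had 12.2 ± 4.37 in KO and 19.5 ± 3.13 in Ctrl (change -0.68, SE 0.30, adjusted p = 0.413), with 1 KO library at 7.47 well below the others. Spib had 138.7 ± 16.1 in KO and 187.9 ± 32.0 in Ctrl (change -0.43, SE 0.24, adjusted p = 0.637). Ets1 had 62.6 ± 4.49 in KO and 78.4 ± 5.17 in Ctrl (change -0.32, SE 0.11, adjusted p = 0.238), and was called in the fit of the activated libraries alone (adjusted p = 0.035), where 11.3% of all genes were called and 6.02% lower. The changes of Ebf1 (-0.33), Spi1 (-0.31), Pou2af1 (-0.25), Irf8 (-0.22), Bach2 (-0.20) and Bcl6 (-0.13) had adjusted p-values of 0.445 to 1.000 in the fit of all libraries and 0.059 to 0.743 in the fit of the activated libraries alone. In 8 of the 10 genes every KO library lay below every Ctrl library, and 16% of all genes did so. The exceptions were Bach2 and Bcl6, which overlapped.

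Markers of cell types moved in the same comparison. Summed levels of 7 B cell markers ran from 2586 to 2754 in activated KO libraries, against 3409 to 3874 in activated Ctrl libraries, and those of 6 plasma cell markers from 337.3 to 436.1 in KO, against 753.6 to 846.5 in Ctrl. Much of the first sum is Cd79a and Cd79b. Much of the second is Jchain (121.3 to 136.6 in KO, 273 to 361.9 in Ctrl) and Xbp1 (169.8 to 238.6 in KO, 399.4 to 416.5 in Ctrl). These genes return in the target lists below, so the sums and those lists are not separate findings. The 6 markers of activated B cells summed to 709.6 to 781.2 in KO and 540.7 to 653.9 in Ctrl. The 4 of 10 erythroid markers in the table summed to 68.4 to 85.2 in KO and 14.7 to 16.2 in Ctrl, and the 3 of 9 T cell markers to 10.8 to 12.8 in KO and 6.4 to 7.41 in Ctrl. The 5 of 9 markers of monocytes and macrophages overlapped, at 26.6 to 54.7 in KO and 31.9 to 35.7 in Ctrl, and the 7 of 9 dendritic cell markers summed to 39.4 to 44.1 in KO and 32.0 to 37.8 in Ctrl. The 4 of 7 platelet markers were lower in KO, at 0.267 to 0.356 against 1.28 to 1.52 in Ctrl. The 1 of 6 NK cell markers had 2.87 to 4.49 in KO and 1.11 to 1.19 in Ctrl. The 2 of 7 neutrophil markers overlapped, at 0.0618 to 1.71 in KO and 0.0861 to 0.478 in Ctrl. None of the markers named here was at 0 in all libraries of an activated group. The part of these shifts in the values of the 10 genes was not tested.

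**Figure D3:**
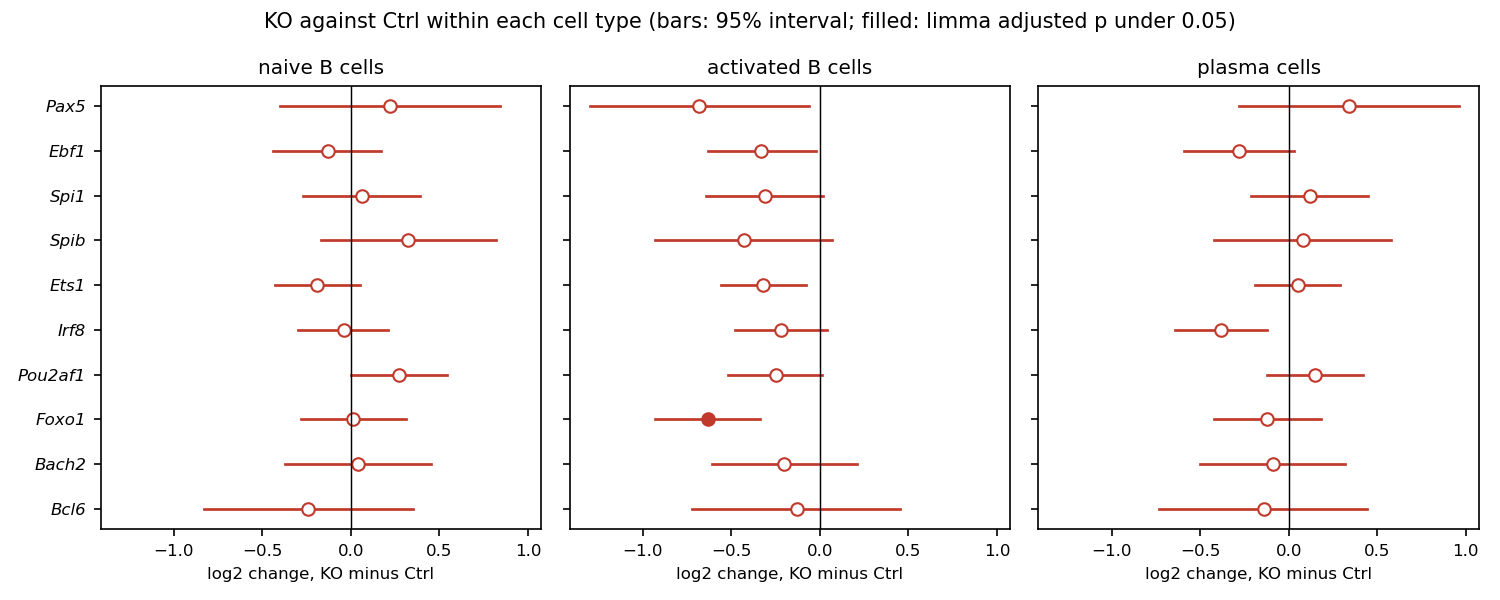
Log2 change in KO against Ctrl for each of the 10 genes with its 95% interval (horizontal axis, log2(scaled RPKM + 1) scale) in naive, activated and plasma cells. In activated cells all 10 points lie below 0, from -0.68 for Pax5 to -0.13 for Bcl6, while the naive and plasma points lie on both sides of 0.

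In plasma cells none of the 10 genes was called in KO against Ctrl, either in the limma fit of all libraries or in the fit of the plasma cell libraries alone, and 1 had an unadjusted p under 0.05. Of all genes 0.61% were called in the first fit and 5.11% in the second. The changes were positive in 5 genes and negative in 5, with a median of -0.02 beside -0.00 over all genes. The largest negative change was in Irf8, with 13.5 ± 1.4 in KO and 17.8 ± 0.79 in Ctrl (change -0.38, SE 0.12, 95% interval -0.64 to -0.12, adjusted p = 0.304, and 0.054 in the fit of the plasma cell libraries alone). Irf8 was called with library weights (adjusted p = 7.1e-05) and without the 6 naive libraries (0.008), settings that called 1641 and 788 of all genes. Every KO library lay below every Ctrl library for Ebf1, Irf8 and Foxo1, 3 of the 10 genes, and 13.6% of all genes did so. Foxo1 had 20.6 ± 1.16 in KO and 22.4 ± 0.323 in Ctrl, a change of -0.12 (95% interval -0.42 to 0.18). Summed T cell markers ran from 8.17 to 12.2 in plasma KO and from 1.31 to 2.18 in plasma Ctrl libraries, those of erythroid markers from 6.5 to 62.3 in KO and 1.7 to 2.19 in Ctrl, and those of the 2 of 7 neutrophil markers in the table from 0.631 to 1.09 in KO and 0.22 to 0.586 in Ctrl. Their part in these values was not tested.

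In naive cells none of the 10 genes was called in KO against Ctrl in either fit, and 1 had an unadjusted p under 0.05, whereas 7.23% of all genes were called in the fit of all libraries and 0 in the fit of the naive libraries alone. The changes were positive in 6 genes and negative in 4, with a median of 0.03 beside -0.09 over all genes. Spib was the single gene whose KO libraries all lay above the Ctrl libraries, with 215.9 ± 15.4 in KO and 172.4 ± 16.5 in Ctrl (change 0.32, SE 0.24, adjusted p = 0.423), and 4.32% of all genes did so. Pou2af1 had 233.2 ± 25.3 in KO and 195.6 ± 43.8 in Ctrl (change 0.27, SE 0.13, adjusted p = 0.202), and was called without naive Ctrl replicate 1. Foxo1 had 59.4 ± 6.58 in KO and 59.5 ± 13.6 in Ctrl, a change of 0.01 with a 95% interval of -0.28 to 0.31.

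Whether the KO change differed between cell types was tested with the difference of the changes. None of the 10 genes was called in any of the 3 such contrasts in the limma fit of all libraries. At an unadjusted p under 0.05 there were 4 genes for activated against naive cells, 4 for plasma against activated cells and 0 for plasma against naive cells. The shares of all genes called by adjusted p were 2.62%, 0.156% and 1.38%, and are not shares for these unadjusted counts. For Foxo1 the KO change in activated cells minus that in naive cells was -0.65 (SE 0.20, adjusted p = 0.094), and the change in plasma cells minus that in activated cells was 0.51 (SE 0.20, adjusted p = 1.000). The second difference was called in the fit of the activated and plasma cell libraries (adjusted p = 0.038), where 1.63% of all genes were called. Pax5 had differences of -0.90 (SE 0.42, adjusted p = 0.279) and 1.02 (SE 0.42, adjusted p = 1.000) in the same 2 contrasts, and Pou2af1 had -0.52 (SE 0.18, adjusted p = 0.136) and 0.40 (SE 0.18, adjusted p = 1.000). The median over the 10 genes was -0.31 for activated against naive cells and 0.39 for plasma against activated cells, beside 0.09 and 0.01 over all genes. Both contrasts use the activated libraries, so they share those values.

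Other genes of the network were read from lists of partners and targets. Their calls in activated KO against Ctrl cells stand beside 1.36% of all genes called lower and a median of all genes of -0.02, and in the fit of the activated libraries alone beside 6.02% called lower and 11.3% in either direction. Among 16 partners of the 10 factors, such as the octamer-binding factor Pou2f2, the E protein Tcf3 and the Ikaros factors Ikzf1 and Ikzf3, none was called in activated KO against Ctrl cells (limma, median -0.01), 1 had an unadjusted p under 0.05, and 1 was called higher in the fit of the activated libraries alone. Of 22 other B cell transcription factors 1 fell, the Krüppel-like repressor Klf3, with 12.9, 13.3 and 16.0 in KO libraries, against 26.1, 23.1 and 26.5 in Ctrl libraries (change -0.80, SE 0.15, adjusted p = 0.006). The list had a median of -0.08, and the fit of the activated libraries alone called 5 lower and 1 higher.

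Of 17 genes that PAX5 or EBF1 activate, 4 fell and 0 rose in activated KO cells, with a median of -0.33, and 3 of the 17 are among the 10 factors themselves. In the fit of the activated libraries alone 8 were called lower. Cd79a and Cd79b encode the signalling chains of the B cell receptor. Cd79a had 873.5, 1049 and 916.9 in KO libraries, against 1321, 1349 and 1499 in Ctrl libraries (change -0.56, SE 0.09, adjusted p = 0.003). Cd79b had 728.7, 673.2 and 743.3 in KO libraries, against 1027, 992.3 and 1206 in Ctrl libraries (change -0.58, SE 0.10, adjusted p = 0.003). Cd72, a coreceptor that dampens B cell receptor signals, had 101.1, 69.2 and 78.4 in KO libraries, against 180.3, 157.7 and 182.1 in Ctrl libraries (change -1.07, SE 0.18, adjusted p = 0.004). Vpreb3, which binds nascent immunoglobulin chains, had 143.0, 123.5 and 136.8 in KO libraries, against 267.8, 277.2 and 244.6 in Ctrl libraries (change -0.96, SE 0.17, adjusted p = 0.005). In each of these 4 genes, named because they were called, every KO library lay below every Ctrl library, and 16% of all genes did so. Each call held whichever of the 6 activated libraries was left out. In plasma cells, where 0.61% of all genes were called, 2 of the 17 fell, Vpreb3 (35.7 in KO and 151.4 in Ctrl, change -2.06, adjusted p = 2.1e-06) and Cd79a (437.1 in KO and 774.7 in Ctrl, change -0.82, adjusted p = 6.5e-05). The complement receptor gene Cr2 rose there (22.5 in KO and 13.9 in Ctrl, change 0.66, adjusted p = 0.027), but lost its call whichever of the 6 plasma cell libraries was left out (largest adjusted p 0.174). The list median in plasma cells was 0.08, and the fit of the plasma cell libraries alone called 2 higher and 2 lower.

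The called genes among those that these factors hold down were also lower in activated KO cells. Of 8 tested genes that PAX5 represses, 2 fell in activated KO cells and 0 rose (median -0.15), and 3 were called lower in the fit of the activated libraries alone. They were Jchain, the joining chain of secreted antibodies, with 121.3, 122.4 and 136.6 in KO libraries, against 273.0, 361.9 and 350.2 in Ctrl libraries (change -1.36, SE 0.11, adjusted p = 4.0e-06), and Xbp1, a driver of secretion. Xbp1 had 169.8, 220.2 and 238.6 in KO libraries, against 401.6, 399.4 and 416.5 in Ctrl libraries (change -0.96, SE 0.15, adjusted p = 0.002). The same 2 genes were the calls among 11 plasma cell factors (median -0.40), of which 6 were called lower in the fit of the activated libraries alone. Prdm1, named here after its values were seen, had 13.6, 21.2 and 16.7 in KO libraries, against 33.4, 35.7 and 25.4 in Ctrl libraries (change -0.85, SE 0.30, adjusted p = 0.220, and 0.012 in the fit of the activated libraries alone). Prdm1 is in the lists of genes that PAX5, BACH2 and BCL6 repress and among the plasma cell factors. The counts of those lists in the fit of the activated libraries alone all include it, so they are not separate. Of 5 tested genes that BACH2 represses, Cebpb fell, with 4.48, 3.8 and 6.99 in KO libraries, against 8.93, 15.6 and 13.5 in Ctrl libraries (change -1.17, SE 0.20, adjusted p = 0.003), and none rose (median -0.46). The fit of the activated libraries alone called 2 of the 5 lower. Of 12 genes that BCL6 represses the limma fit of all libraries called none (median -0.04), 3 had an unadjusted p under 0.05, and the fit of the activated libraries alone called 2 lower. Of 9 genes that BLIMP-1 represses, 4 of which are among the 10 factors, the limma fit of all libraries called none (median -0.32), 2 had an unadjusted p under 0.05, and the fit of the activated libraries alone called 2 lower.

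Of 12 tested genes that FOXO1 activates, 1 fell and 0 rose in activated KO cells, and 10 of the 12 changes were negative (median -0.25). In the fit of the activated libraries alone 3 were called lower, where 6.02% of all genes were. S1pr1, the receptor by which lymphocytes leave lymphoid tissue, had 22.1, 18.5 and 25.9 in activated KO libraries, against 47.4, 48.8 and 57.5 in activated Ctrl libraries (change -1.18, SE 0.14, adjusted p = 1.0e-04). The call held whichever of those libraries was left out, and in plasma cells S1pr1 had 21.1 in KO and 18.1 in Ctrl (change 0.21, adjusted p = 1.000). Cdkn1b, the cell cycle inhibitor p27, had 4.66, 3.68 and 4.92 in activated KO libraries, against 6.29, 7.28 and 7.73 in activated Ctrl libraries (change -0.58, SE 0.20, adjusted p = 0.197, and 0.023 in the fit of the activated libraries alone). Cdkn1b was also the gene most like Foxo1 over these same libraries, so its match to Foxo1 is not separate support. Of 13 genes that PU.1 or SPI-B activate, Bcl6 among them, 1 fell in activated KO cells (median -0.25), the inhibitory Fc receptor Fcgr2b, and 2 were called lower in the fit of the activated libraries alone. Fcgr2b had 141.1, 133.8 and 138.0 in KO libraries, against 208.6, 209.5 and 193.1 in Ctrl libraries (change -0.56, SE 0.10, adjusted p = 0.003), and fell in plasma cells as well (51.2 in KO and 77.8 in Ctrl, change -0.59, adjusted p = 0.003). In plasma cells Myc, which BLIMP-1 represses, rose (18 in KO and 10.3 in Ctrl, change 0.75, adjusted p = 0.008). Its call was lost without plasma KO replicate 1 or 3 or plasma Ctrl replicate 1, with a largest adjusted p of 0.073. In plasma cells the limma fit of all libraries called none of the partners, the other B cell transcription factors, the plasma cell factors, the genes that PAX5, BCL6 or BACH2 repress, or those that FOXO1 activates. At an unadjusted p under 0.05 these lists held 1, 2, 1, 1, 4, 2 and 0 genes, with no share of all genes counted at that threshold. The fit of the plasma cell libraries alone, which called 5.11% of all genes, called 1, 1, 2, 0, 1, 1 and 0 of them, all lower. It called 2 higher and 1 lower of the genes that PU.1 or SPI-B activate.

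**Figure D4:**
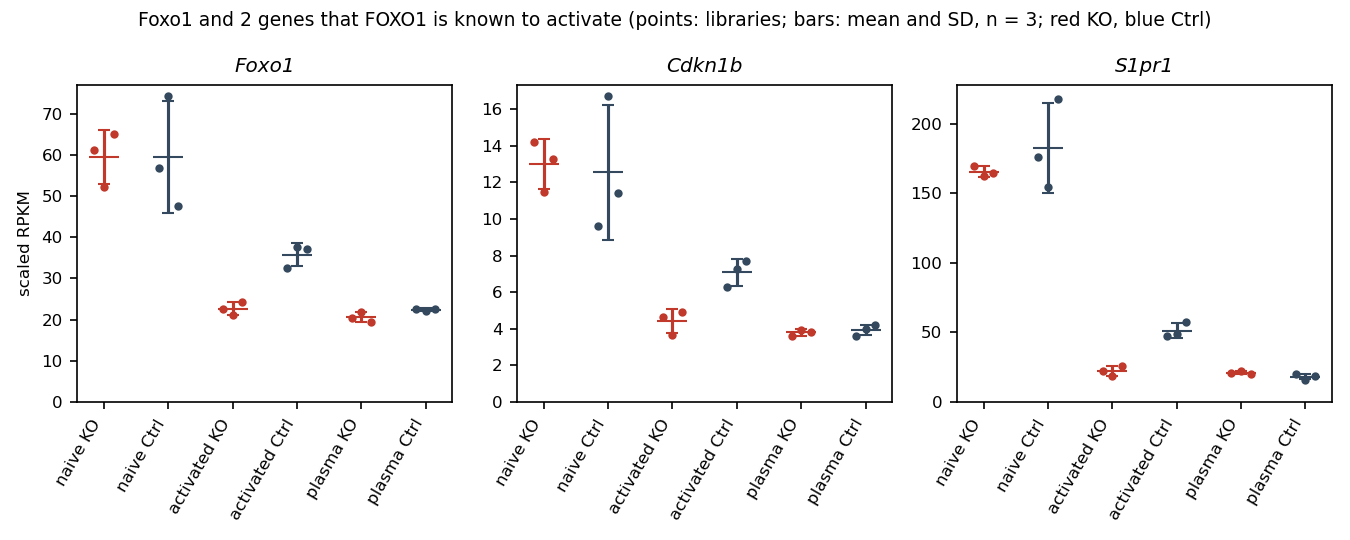
Scaled RPKM (vertical axes, linear) of Foxo1 and of Cdkn1b and S1pr1, which FOXO1 is known to activate, in each library by cell type with KO left of Ctrl; points are libraries and bars the mean and SD (n = 3). The activated KO libraries lie below the activated Ctrl libraries in all 3 genes, at 21.1 to 24.3 against 32.6 to 37.5 for Foxo1, and close to the plasma cell libraries. Of all genes 16% had every activated KO library below every activated Ctrl library. S1pr1 is shown because it was called in these same libraries, so its separation is not independent support. Cdkn1b was also the gene most like Foxo1 over these same libraries (r = 0.9864), so its match is not separate support. The other tested genes that FOXO1 activates are not shown.

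**Figure D5:**
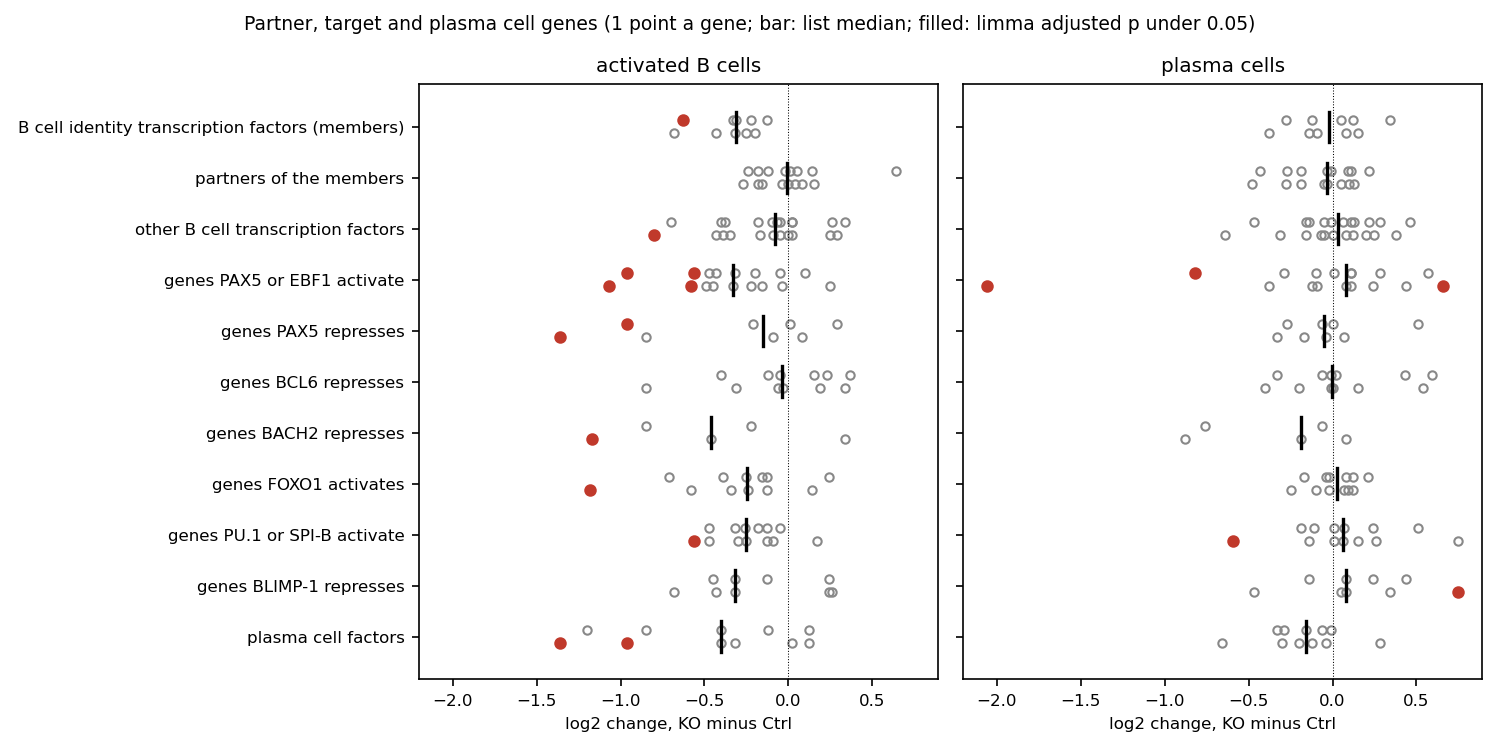
Log2 change in KO against Ctrl of each tested gene in the lists of partners and targets (horizontal axis, log2(scaled RPKM + 1) scale), in activated and in plasma cells; each point is a gene, filled where called, and each bar a list's median. In activated cells the 4 called genes that PAX5 or EBF1 activate, the called genes that PAX5 and BACH2 repress and S1pr1 all lie below 0.

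In naive cells 4 genes of these lists were called in the fit of all libraries, which called 7.23% of all genes, and none of them in the fit of the naive libraries alone. Nfe2l1 (change 0.54, adjusted p = 0.046) and Cd69 (0.38, 0.043) rose, and Ccl3 (-1.48, 0.019) and Gpr183 (-0.43, 0.050 after rounding) fell. None of them is among the 10 factors.

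Across the 18 libraries the log2 levels of the other 9 factors correlated with each other at r = 0.654 to 0.988, and Pou2af1 correlated negatively with all 9, at r = -0.972 to -0.79. These are descriptions over libraries that share cell types and depths. Among 8952 genes, Foxo1 was most like Cdkn1b (r = 0.9864), which had 13 in naive KO and 12.6 in naive Ctrl cells, 4.42 in activated KO and 7.1 in activated Ctrl cells, and 3.8 in plasma KO and 3.95 in plasma Ctrl cells. Tigd2 and Clk1 followed. Spib was most like Cd22 (r = 0.9976), and Ms4a4c was also among its 3 most alike genes. Ebf1 was most like the MHC class II genes H2-DMa (r = 0.9975), H2-Aa and H2-Eb1. H2-Aa had 2218 in naive KO and 2138 in naive Ctrl cells, 805.3 in activated KO and 997.6 in activated Ctrl cells, and 138.4 in plasma KO and 190.0 in plasma Ctrl cells. Pax5 was most like Morc3 (r = 0.9905), Lsp1 and Srpk3, and Bach2 most like Neurl3 (r = 0.9934), Gga2 and Itgb7. Irf8 was most like Il21r (r = 0.9921), Napsa and Prkcb, Ets1 most like Marchf1 (r = 0.9927), Pde2a and Neurl3, and Bcl6 most like Tnrc6c (r = 0.9866), Mylip and Treml2. Gimap1 (r = 0.9732) and Trim14 (r = 0.9695) were among the 3 genes most like Spi1. Pou2af1 was most like the secretory pathway genes Tram1 (r = 0.9877) and Ube2j1, and Eaf2. Eaf2 had 3.52 in naive KO and 3.53 in naive Ctrl cells, 9.81 in activated KO and 19.5 in activated Ctrl cells, and 239.8 in plasma KO and 246.1 in plasma Ctrl cells.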

How the data were processed

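RNA-seq libraries were made with SMART-seq v4 from 1000 cells each, per the labels' protocols. The authors deposited 1 table of RPKM values for detected genes. Reads were aligned with STAR to mm10, per the submitters' processing notes. For the counting tool, versions and detection criterion, the sources used here give nothing. The value columns matched 18 samples by title, and 3 libraries formed each group. Low values fell within 0.1 of a whole read in only 27.6% to 37.2% of cases, so read counts were not recovered and no count model was run. RPKM were scaled by the median of ratios over 8012 genes, with factors of 0.903 to 1.07. Genes with a mean of at least 1 RPKM in a group were kept, 12787 of 12960. Log2(scaled RPKM + 1) values were fitted with limma 3.58.1 in R 4.3.3, with trended empirical Bayes variances, all 18 libraries, 12 contrasts and no replicate block. Calls are Benjamini-Hochberg adjusted p under 0.05 over all genes tested. Because 1 is added, changes of low genes are understated. The script was tested on simulated data. Where nothing says that libraries came from separate animals, p-values measure only the spread between these libraries. Genes were named if they were 1 of the 10 factors, among the 4 called genes of a list with the smallest adjusted p in KO against Ctrl, or 1 of the 3 genes most like a factor. Some genes that meet this rule are not reported here. The 10 genes, the lists and the motifs were chosen with earlier results of these data known. Alternatives were the fit of the libraries compared, RPKM as deposited, quantile normalization, a pseudocount of 0.1, no filter, a filter of 5 RPKM, library weights, a replicate block, leaving out the naive libraries and leaving out each library.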

Additional observations from a re-analysis of the deposited data

How the results depend on the processing

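Of 144 results compared, 22 changed sign under some alternative, and none of those was called in either setting. Of the 10 factors, 1 was called in activated KO against Ctrl cells, 2 in the fit of the activated libraries alone, 7 with library weights, 2 without the naive libraries and 0 to 1 with a library left out. The same settings called 228, 1442, 2446, 1850 and 90 to 165 of all genes. In naive KO against Ctrl cells 0 was called, and 0 to 1 with a library left out. In plasma KO against Ctrl cells 0 was called, 1 with library weights and 1 without the naive libraries, where 78, 1641 and 788 of all genes were. For the difference of KO changes in plasma against activated cells 0 was called, 1 in the fit of the libraries compared, 5 with library weights and 1 without the naive libraries. Over all genes those counts were 20, 208, 636 and 208. With a library left out 0 to 2 of the 10 factors were called for the difference in activated against naive and 0 to 1 for that in plasma against naive cells.

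Replicate numbers were not used to pair the libraries in the main fit. Same-numbered KO and Ctrl libraries deviated together with correlations of -0.189 to -0.001 in naive, -0.212 to 0.07 in activated and 0.068 to 0.312 in plasma cells. Activated and plasma libraries share the numbers 1, 3 and 4. Same-numbered ones deviated together with correlations of -0.192 to 0.055 in KO and -0.008 to 0.154 in Ctrl. Weak correlations over 3 libraries in a group do not exclude pairing. In plasma cells each KO library correlated best with its own number, a hint from the data and not from the design. With the replicate block 0 of the 10 factors was called in activated KO against Ctrl cells, with Foxo1 at an adjusted p of 0.098. In activated against naive KO cells the block gave 0 higher and 7 lower, in place of 1 and 8, since Spib (-0.55, adjusted p = 0.134) and Pou2af1 (0.39, adjusted p = 0.059) missed the threshold. It changed no other call of the 10 factors. Of the list genes named, Cr2 in plasma cells and the 4 called in naive cells also missed it.

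Over all genes, calls in naive KO against Ctrl cells numbered 924, but 0 in the fit of the libraries compared, 0 with library weights, 436 with the pseudocount of 0.1, 472 with the filter of 5 RPKM and 486 with the block. In activated cells they numbered 228, but 1442, 2446 with weights and 1850 without the naive libraries. In plasma cells they numbered 78, but 653, 1641 with weights, 788 without the naive libraries and 50 with the block. For the difference of KO changes the counts were 335, 20 and 177 for activated against naive, plasma against activated and plasma against naive cells, but 24, 208 and 23 in the fit of the libraries compared, 6, 636 and 19 with weights, and 172, 8 and 69 with the block. The pseudocount gave 206 for the first and 102 for the last, the filter of 5 RPKM gave 115 for the last, and leaving out the naive libraries gave 208 for plasma against activated cells. For plasma against activated cells the calls numbered 4235 in KO and 4196 in Ctrl, but 6744 and 6430 in the fit of the libraries compared, 7507 and 7111 with weights, and 6781 and 6663 without the naive libraries. With a library left out, calls in KO against Ctrl ran from 880 to 2436 in naive cells (2436 without KO replicate 2 and 1706 without Ctrl replicate 2), from 90 to 165 in activated cells and from 46 to 52 in plasma cells. For the difference of KO changes they ran from 108 to 1191 for activated against naive, 9 to 16 for plasma against activated and 61 to 1130 for plasma against naive cells, with 1191 and 1130 reached without naive KO replicate 2. The share of calls that were higher moved with quantile normalization to 52.8% (29.1% before) in naive KO against Ctrl cells, 49.9% (38.1%) and 49.2% (32.5%) in activated against naive KO and Ctrl cells, and 50.5% (40.0%) and 50.6% (35.3%) in plasma against naive KO and Ctrl cells. With RPKM as deposited it moved to 36.7% (47.6%) and 34.1% (49.0%) in plasma against activated KO and Ctrl cells. The causes were not tested.

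Changes of sign, none called, were as follows. In naive KO against Ctrl cells Irf8 was 0.01 with weights, and Foxo1 -0.04 with quantile normalization and -0.01 with weights. In plasma KO against Ctrl cells Spib was -0.06 with quantile normalization, -0.05 with the pseudocount and -0.07 with weights. In activated against naive cells Irf8 in KO was -0.14 with quantile normalization and -0.11 with the block, and Spib in Ctrl -0.10 and -0.02. For differences of KO changes, Bcl6 in activated against naive cells was -0.03 with weights; in plasma against activated cells Ebf1 was -0.04 and Bach2 -0.08 with the pseudocount, and Bcl6 0.01 as deposited and 0.06 with weights; in plasma against naive cells Bcl6 was -0.17 with the pseudocount and Pou2af1 0.04 with quantile normalization. With a library left out, ranges that crossed 0 in naive KO against Ctrl cells were -0.07 to 0.54 for Pax5, -0.04 to 0.13 for Bach2, -0.47 to 0.12 for Bcl6, -0.12 to 0.17 for Spi1, -0.14 to 0.13 for Irf8, -0.13 to 0.18 for Foxo1 and -0.39 to 0.12 for Ehmt2. In activated cells they were -0.35 to 0.01 for Bcl6 and -0.07 to 0.12 for Ehmt2, and in plasma cells -0.26 to 0.01 for Bcl6 and -0.34 to 0.30 for Spib. In activated against naive cells they were -0.12 to 0.15 for Irf8 in KO and -0.02 to 0.19 for Spib in Ctrl. For the differences they were -0.25 to 0.33 for Bcl6 in activated against naive cells, -0.01 to 0.10 for Ebf1, -0.01 to 0.21 for Bach2 and -0.15 to 0.21 for Bcl6 in plasma against activated cells, and -0.20 to 0.41 for Pax5, -0.26 to 0.32 for Bcl6, -0.05 to 0.24 for Spi1, -0.30 to 0.01 for Foxo1 and -0.28 to 0.05 for Pou2af1 in plasma against naive cells.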
